A study of Mus musculus with 7 samples.

Results

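Apolipoproteins carry lipid out of macrophages, and the liver X receptors (LXRs) are nuclear receptors that sense oxidised sterols and switch on the genes for this export. In the classical scheme the membrane transporters ABCA1 and ABCG1 load cholesterol onto apolipoprotein acceptors, apolipoproteins E and C1 circulate on the resulting particles, PLTP and LPL move or hydrolyse the lipid that lipoproteins carry, and the ubiquitin ligase MYLIP (IDOL) removes the LDL receptor. Kupffer cells, macrophages that live in the liver sinusoids, express LXR-alpha as part of their identity and clear lipoproteins and red cells from portal blood. The genes described here are Apoe, Apoc1, Abca1, Abcg1, Pltp, Lpl and Mylip, taken by symbol from the deposited count table. All 7 were among the 10550 genes listed, and 6 of them passed the expression filter that left 3412 genes for testing. Mylip did not pass and was tested in a second fit to which it was added.

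The libraries came from Kupffer cells sorted from untreated 8-week-old male mice on a C57BL/6 background. The Commd10-deficient group (3 libraries; genotype label Clec4FDCommd10) was floxed for Commd10 and also carried Clec4f+/cre, a Cre inserted at a gene that is active in Kupffer cells. The control group (4 libraries; genotype label Commd10fl/fl) is labelled with the floxed alleles and no Cre, and the series description calls them littermates. Titles split the controls into set 1 (replicates 1 and 2) and set 2 (replicates 3 and 4). RNA of about 10000 cells per library was read by bulk MARS-Seq, which tags the 3′ ends of transcripts and counts unique molecules. Since no Cre is labelled in controls, an effect of Cre or of the altered Clec4f allele cannot be told apart from that of the Commd10 deletion, and nothing in the labels says that each library is 1 animal.

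Depth differed by group. The Commd10-deficient libraries held 105462 to 124016 counts, control set 2 held 230942 and 267553, and control set 1 held 4270240 and 3207144. Levels are given as CPM, counts scaled to a common library size. A floor of 3 counts was 24.2 to 28.4 CPM in the Commd10-deficient libraries and as low as 0.703 CPM in control set 1. Commd10 itself was counted 0, 4 and 2 times in the Commd10-deficient libraries, 7 and 1 in control set 2 and 167 and 130 in control set 1, too few in the shallow libraries to check the genotype labels, and a 3′ tag need not lie in the deleted stretch. The cells carried their identity transcripts: the 19 Kupffer cell markers summed to 70717 to 75267 CPM in the Commd10-deficient libraries, 65763 to 66464 CPM in control set 2 and 70084 to 71266 CPM in control set 1, with Xlr alone at 0 counts throughout the Commd10-deficient group. Of the 17 markers tested 1 fell, Marco, a scavenger receptor gene (log2 fold change -1.78, edgeR adjusted p = 0.016), and 0 rose, where 6.04% of all 3412 genes tested were called. At an unadjusted p under 0.05 there were 9 of the 17, against 825 of all 3412, in both directions. After Marco, the smallest p were those of Pcolce2 at -1.18 (adjusted p = 0.05004) and C1qc at 0.72 (adjusted p = 0.056). Next came the haemoglobin receptor gene Cd163 at 1.09 (adjusted p = 0.063) and the iron exporter gene Slc40a1 at 1.98 (adjusted p = 0.067). Slc40a1 had 2230 counts in control replicate 1 and 394 in control replicate 2. Hepatocyte transcripts were present too, and their values stand beside the apolipoproteins below.

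RefSeq promoters (GRCm38.p6, 250 bases before to 50 after the start) were available for 4 of the 7 genes, namely Apoe, Abca1, Pltp and Mylip. Abca1 and Apoe are printed because Abca1 is the textbook LXR target among them and Apoe was the most abundant transcript of the 7; of the 3 Apoe starts in the table the most upstream is shown. Capitals mark a match, on either strand, to GGTNA, then any 5 bases, then GGTNA again, a relaxed form of the direct repeat spaced by 4 bases that LXR binds with its partner RXR.
Abca1, chr4:53159846-53160145, minus strand: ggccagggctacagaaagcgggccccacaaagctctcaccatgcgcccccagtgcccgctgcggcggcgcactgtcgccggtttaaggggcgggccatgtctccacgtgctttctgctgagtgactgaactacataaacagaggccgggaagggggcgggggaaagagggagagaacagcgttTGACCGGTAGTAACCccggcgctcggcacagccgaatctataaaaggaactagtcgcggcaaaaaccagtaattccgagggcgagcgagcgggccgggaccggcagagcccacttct
Apoe, chr7:19699139-19699438, minus strand: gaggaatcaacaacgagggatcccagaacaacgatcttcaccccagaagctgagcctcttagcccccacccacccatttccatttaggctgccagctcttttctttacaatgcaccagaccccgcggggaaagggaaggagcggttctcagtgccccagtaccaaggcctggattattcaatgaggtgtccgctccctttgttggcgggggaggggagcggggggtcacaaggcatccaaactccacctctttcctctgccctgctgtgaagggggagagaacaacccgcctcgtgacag
The Abca1 match ends 53 bases before the start and reads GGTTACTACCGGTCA on the other strand. Of 32851 promoters in the table, 236 (0.718%) held such a match, and the windows of Apoe, Pltp and Mylip did not. The stricter form, a pair of AGGTCA copies with any 4 bases between, was in 5 promoters, none of them of these genes. A match describes letters in a window and not a bound site.

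Among the 7 genes, Apoc1 fell in Commd10-deficient Kupffer cells and the others did not pass the test. Apoc1 encodes a small apolipoprotein that inhibits lipoprotein uptake and lipase activity. It lies on chromosome 7 from 19689481 to 19692660 on the minus strand (mm10, GENCODE M21), 3448 bases from Apoe. Its level was 1603, 1541 and 2862 CPM in Commd10-deficient replicates 1 to 3, against 7924 and 7358 CPM in control set 2 and 7364 and 6256 CPM in control set 1. Every Commd10-deficient library lay below every control, and the control sets were close to each other. Every Commd10-deficient library was also shallower than every control, so depth cannot be told apart from genotype in the Apoc1 level. The means were 2002 ± 745 CPM in Commd10-deficient cells (SD, n = 3) and 7226 ± 699 CPM in controls (SD, n = 4). In edgeR's quasi-likelihood test this came to a log2 fold change of -1.85 (SE 0.28, adjusted p = 0.00789), a level 3.61-fold lower. Over all 3412 genes, 206 were called at an adjusted p under 0.05 (6.04%), of which 88 were lower (2.58%) and 118 higher (3.46%).

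Apoc1 was lower against each control set taken by itself. In a model with 3 levels it was -1.93 against control set 2 (SE 0.23, adjusted p = 0.000213) and -1.76 against control set 1 (SE 0.23, adjusted p = 8.44e-05), and control set 2 minus control set 1 was 0.17 (SE 0.25, adjusted p = 0.682). These comparisons share the Commd10-deficient libraries. DESeq2 gave -1.92 (adjusted p = 2.02e-08), where it called 6.54% of the genes it tested, and limma-voom gave -1.88 (adjusted p = 0.00559), where it called 5.86%. With 1 Commd10-deficient library fewer the 2-group call was lost without replicate 1 (-1.75, adjusted p = 0.113) and without replicate 2 (-1.72, adjusted p = 0.127), settings in which edgeR called 0 genes of the whole table (666 and 683 at an unadjusted p under 0.05). Without replicate 3, the highest of the group, it was -2.23 (adjusted p = 0.0128). In the 3-level model Apoc1 was called against each control set under all 10 alternatives run there, those 3 among them.

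Apoe, which encodes the main apolipoprotein made by macrophages, lies next to Apoc1 on the same strand from 19696109 to 19699188. It had 40819, 35918 and 39219 CPM in the Commd10-deficient libraries, against 49641 and 43684 CPM in control set 2 and 30372 and 26517 CPM in control set 1. The Commd10-deficient libraries lay between the control sets, which did not overlap each other. Against all controls its log2 fold change came to 0.04 (SE 0.25, adjusted p = 0.930). It was -0.27 against control set 2 (SE 0.16, adjusted p = 0.228) and 0.44 against control set 1 (SE 0.16, adjusted p = 0.059), opposite in sign, while control set 2 exceeded control set 1 by 0.71 (SE 0.17, adjusted p = 0.00997). A genotype difference smaller than that gap between controls was not resolved for Apoe.

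**Figure D1:**
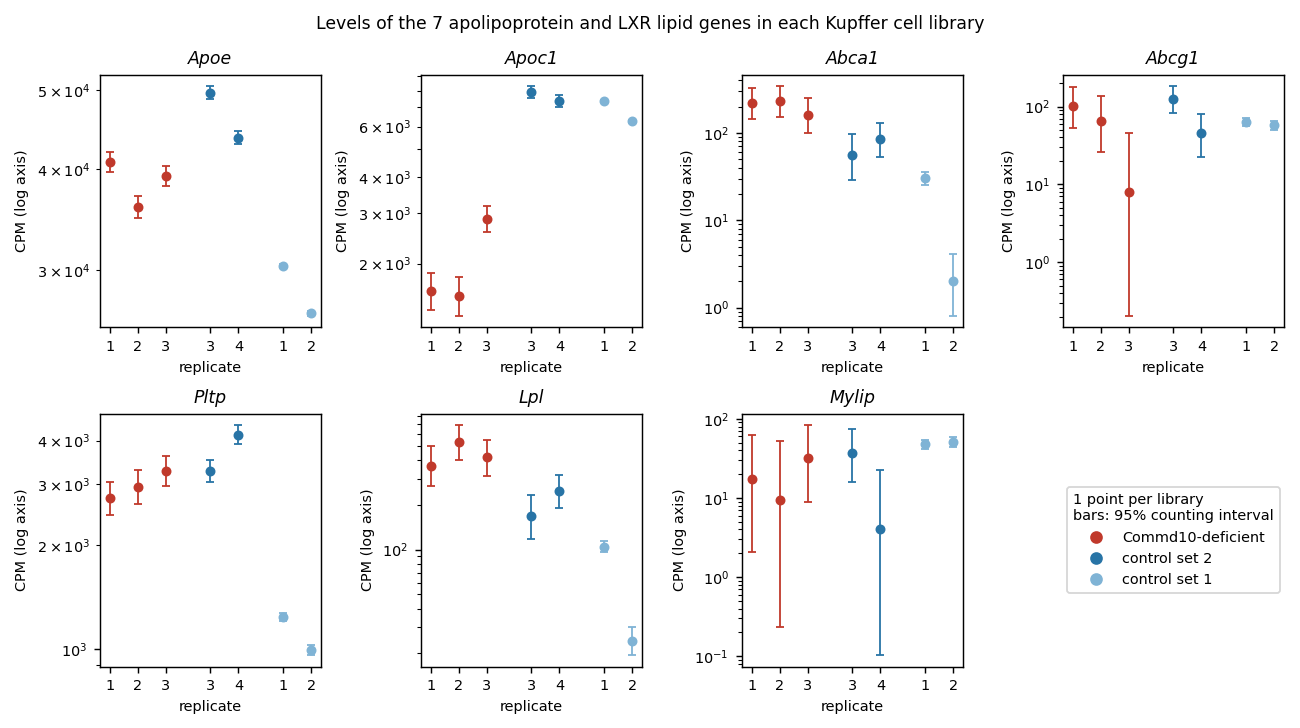
Levels of the 7 genes in CPM on a log axis, 1 point per library with its exact 95% Poisson interval (counting error only), for the Commd10-deficient libraries, control set 2 and control set 1. Apoc1 lies at 1541 to 2862 CPM in the Commd10-deficient libraries and at 6256 to 7924 CPM in controls; Abca1 and Lpl are lowest in control replicate 2.

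Because both apolipoproteins were counted in the same library, their ratio does not depend on how libraries are scaled. Apoc1 made up 3.78%, 4.11% and 6.80% of the Apoe plus Apoc1 counts in Commd10-deficient replicates 1 to 3. The share was 13.8% and 14.4% in control set 2, and 19.5% and 19.1% in control set 1. The 95% Wilson intervals ran from 3.28% to 4.35%, from 3.54% to 4.77% and from 6.15% to 7.52% in the Commd10-deficient libraries, and from 13.2% to 14.4% and from 13.8% to 15.0% in control set 2. The groups did not overlap, and neither did the control sets. Share and depth ranked the groups alike, both highest in control set 1 and lowest in the Commd10-deficient libraries. Each Commd10-deficient library was shallower than each control, so depth cannot be told apart from genotype in this ratio. The mean log2 ratio of Apoc1 to Apoe was -4.33 ± 0.48 in Commd10-deficient cells (SD, n = 3) and -2.34 ± 0.32 in controls (SD, n = 4), a difference of -1.99 (two-sided exact permutation test over libraries, p = 0.0571, the smallest p that 35 arrangements allow). Groups that do not overlap can only return this p, so it adds nothing to the lack of overlap.

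**Figure D2:**
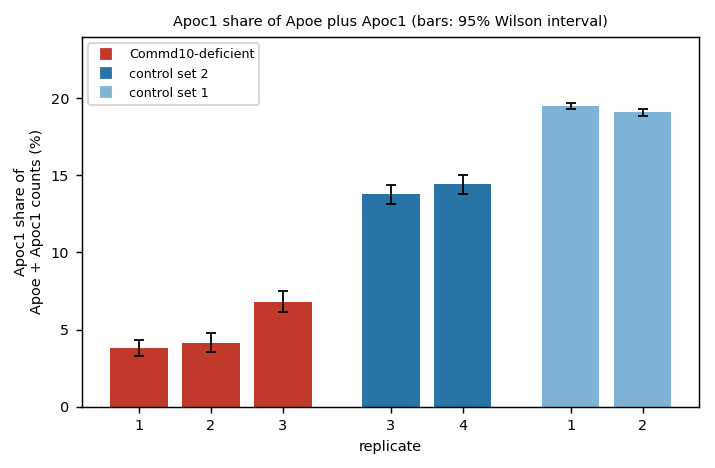
Share of Apoc1 in the summed Apoe and Apoc1 counts of each library, in percent, with 95% Wilson intervals. The Commd10-deficient libraries sit at 3.78% to 6.80%, below control set 2 at 13.8% and 14.4% and control set 1 at 19.5% and 19.1%.

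Hepatocytes also express Apoe and Apoc1, so hepatocyte RNA was followed beside them. The 24 hepatocyte markers listed in the table, of 25 in the list, summed to 8125 to 9122 CPM in Commd10-deficient libraries, 10434 to 11200 CPM in control set 2 and 6430 to 6788 CPM in control set 1. All 24 had a count in the Commd10-deficient group. The summed level in Commd10-deficient libraries was above that of control set 1 and below that of control set 2. Apoc1 was below both sets. The largest parts of the sum were Trf and Alb, with means of 2350 and 1903 CPM in Commd10-deficient cells. Their edgeR log2 fold changes were 0.10 (adjusted p = 0.856) and 0.17 (adjusted p = 0.747). The part of hepatocyte RNA in the Apoc1 values was not tested. Of the 20 markers tested 1 rose (Serpina3k, a serine protease inhibitor gene) and 0 fell, beside 3.46% and 2.58% of all genes tested, and 5 had an unadjusted p under 0.05. The median log2 fold change of these markers was 0.0096 against -0.049 over all genes tested. The 5 apolipoprotein genes tested in that list had no call against all controls. Apoa1 was at -0.80 (adjusted p = 0.426) and Apoa2 at -0.96 (adjusted p = 0.119). Apoc3 was at -0.97 (adjusted p = 0.229) and Apoh at -0.82 (adjusted p = 0.310), so these were all lower. Apob alone was higher, at 1.30 (adjusted p = 0.442), on 4, 6 and 8 counts in the Commd10-deficient libraries. In the 3-level edgeR model Apoc3 was -1.43 against control set 2 (adjusted p = 0.026) and -0.47 against control set 1 (adjusted p = 0.461). In bulk libraries, fewer cells that express a gene and less RNA per cell cannot be told apart.

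Neither transporter gene passed the test against all controls. Abca1, which encodes the transporter that hands cholesterol and phospholipid to lipid-poor apolipoproteins, lies on chromosome 4 from 53030787 to 53159895 on the minus strand. Its counts were 26, 25 and 20 in Commd10-deficient cells, against 12 and 21 in control set 2 and 139 and 7 in control set 1. In CPM these were 223, 234 and 162 in Commd10-deficient cells, 56.0 and 85.9 in control set 2, and 30.4 and 2.01 in control set 1. Abca1 met the expression filter through the Commd10-deficient libraries, where it was high, and the controls alone would not have met it. The Commd10-deficient libraries were above all controls, yet the log2 fold change of 2.55 (SE 0.83) had an adjusted p of 0.085. It was 1.52 against control set 2 (SE 1.03, adjusted p = 0.346) and 3.62 against control set 1 (SE 0.97, adjusted p = 0.044).

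Control replicate 2 stood out for Abca1. Control replicate 1 exceeded it 15.2-fold for Abca1, with exact 95% intervals of 25.6 to 35.9 CPM for replicate 1 and 0.807 to 4.13 CPM for replicate 2. Of the 3412 tested genes, 4 (0.117%) were at least as far below replicate 1 in that library. Without control replicate 2, Abca1 was called at a log2 fold change of 1.96 (adjusted p = 0.017), where 276 of 2672 genes were called. With control set 2 alone it was called at 1.55 (adjusted p = 0.00393), a setting that called 31.7% of the genes it tested. With every library kept, it was called with no filter (2.34, adjusted p = 0.00466), where 514 of 10550 genes were called. It was called in limma-voom too (4.44, adjusted p = 0.036), where 5.86% were called. The value stayed above 0 in all 15 alternatives. In the 3-level model Abca1 was called against control set 1 in 5 of 10 alternatives, from 2.72 without control replicate 2 to 6.52 without control replicate 1. Against control set 2 it was called in 2 of 10, without control replicate 1 (1.52, adjusted p = 0.011) and without control replicate 2 (1.52, adjusted p = 0.00985).

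Abcg1 (chromosome 17, 31057675 to 31117988, plus strand) encodes the transporter that moves sterol to mature lipoprotein particles. The transcript was counted 12, 7 and 1 times in the Commd10-deficient libraries, 27 and 11 in control set 2, and 291 and 200 in control set 1. The levels were 103, 65.4 and 8.08 CPM in Commd10-deficient cells, 126 and 45.0 CPM in control set 2, and 63.7 and 57.3 CPM in control set 1, and the groups overlapped. Its log2 fold change came to -0.27 (SE 0.59, adjusted p = 0.816). Pooled counts gave a ratio of 0.695 to control set 2 (exact 95% interval 0.383 to 1.22) and 0.945 to control set 1 (0.572 to 1.47), intervals that cover counting error only.

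Pltp, like Apoe, differed between the control sets and passed the test there. It encodes phospholipid transfer protein, which moves phospholipid between lipoprotein particles, and lies on chromosome 2 from 164839518 to 164857711 on the minus strand. Exons of Ctsa lie on the opposite strand there, and whether counting used strand is not given in the sources used here. Pltp had 2726, 2943 and 3266 CPM in the Commd10-deficient libraries, against 3276 and 4164 CPM in control set 2 and 1239 and 996 CPM in control set 1. Control set 1 was well below the other libraries, and control set 2 lay just above the Commd10-deficient group. Its log2 fold change came to 0.31 (SE 0.42, adjusted p = 0.694) against all controls, -0.32 (SE 0.20, adjusted p = 0.268) against control set 2 and 1.41 (SE 0.21, adjusted p = 0.000201) against control set 1. Control set 2 exceeded control set 1 by 1.73 (SE 0.22, adjusted p = 0.000117).

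Lpl (chromosome 8, 68880491 to 68907448, plus strand) encodes lipoprotein lipase, which releases fatty acids from circulating triglyceride. It had 369, 532 and 420 CPM in the Commd10-deficient libraries, against 168 and 250 CPM in control set 2 and 105 and 24.4 CPM in control set 1. These rest on 43, 57 and 52 counts in Commd10-deficient cells, 36 and 61 in control set 2 and 479 and 85 in control set 1. Lpl was above all controls in each Commd10-deficient library, with a log2 fold change of 1.78 (SE 0.57, adjusted p = 0.071). It was 1.07 (SE 0.55, adjusted p = 0.202) against control set 2 and 2.75 (SE 0.55, adjusted p = 0.00669) against control set 1. As with Abca1, control replicate 2 was low: control replicate 1 was 4.30-fold higher, and 36 of the tested genes (1.06%) were at least as low in replicate 2. Without that library Lpl was called at 1.38 (adjusted p = 0.024), and without control replicate 4 at 2.27 (adjusted p = 0.027). These settings called 276 of 2672 and 267 of 2741 genes. Lpl was also called with control set 2 alone (1.10, adjusted p = 0.00463), a setting that called 31.7% of its genes. The same held with control set 1 alone (2.73, adjusted p = 0.031), a setting that called 25.1% of its genes. With no filter it was called at 1.59 (adjusted p = 0.000717), where 514 of 10550 genes were called. In the 3-level model it was called against control set 1 in 10 of 10 alternatives, from 2.04 without control replicate 2 to 4.12 without control replicate 1. Against control set 2 it was called in 2 of 10, without control replicate 1 (1.06, adjusted p = 0.00965) and without control replicate 2 (1.07, adjusted p = 0.00971).

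Mylip (chromosome 13, 45389742 to 45412022, plus strand) was close to the limit of detection outside control set 1. It was counted 2, 1 and 4 times in Commd10-deficient cells, 8 and 1 in control set 2, and 218 and 180 in control set 1. Pooled over libraries the ratio to control set 2 was 1.03 (exact 95% interval 0.325 to 3.10) and the ratio to control set 1 was 0.408 (0.163 to 0.848), counting error only. The levels were 17.1, 9.34 and 32.3 CPM in Commd10-deficient cells, 37.3 and 4.09 CPM in control set 2, and 47.7 and 51.6 CPM in control set 1. Groups overlapped, and edgeR put Mylip at -0.94 (SE 0.80, adjusted p = 0.508), a difference these few counts could not resolve.

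Across the 6 genes that passed the filter, 1 was called lower and 0 higher, and 3 did not overlap between the genotypes (Apoc1 lower, Abca1 and Lpl higher). Over all tested genes 25% did not overlap. Against control set 1, 4 of the 7 genes passed in the 3-level model (Apoc1 lower, and Abca1, Pltp and Lpl higher), beside 19.3% of all tested genes. Against control set 2, Apoc1 alone passed, beside 19.1%. Between the control sets Apoe and Pltp passed, both higher in control set 2, beside 18.7%. Each control set holds controls only, so no genotype comparison within a set was possible.

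**Figure D3:**
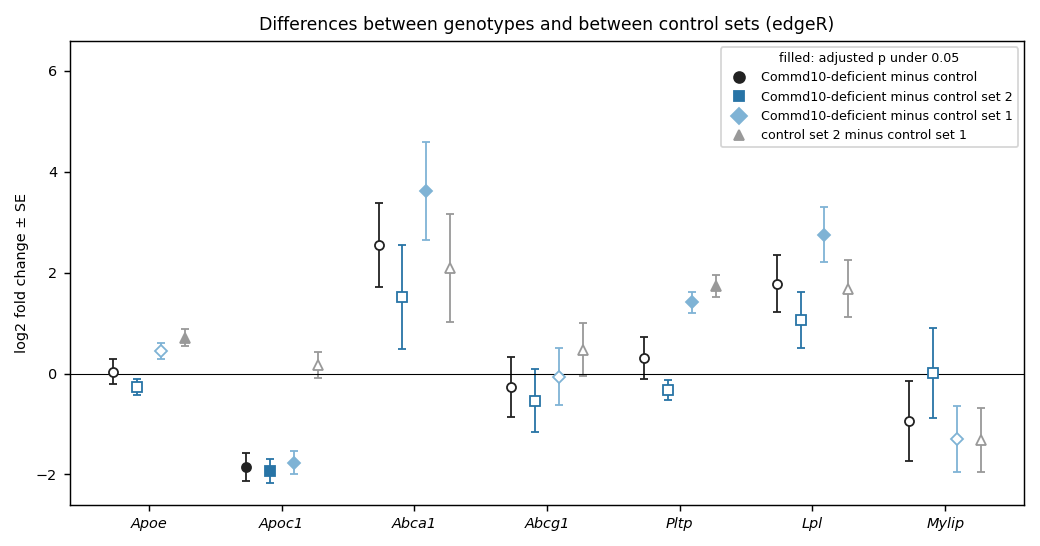
Log2 fold changes with their standard errors for the 7 genes in 4 comparisons, filled where the edgeR adjusted p was under 0.05. Apoc1 is filled in each comparison of Commd10-deficient cells with controls (-1.85, -1.93 and -1.76), whereas Pltp is filled against control set 1 (1.41) and between the control sets (1.73).

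In 6 lists of other lipid genes, 3 genes were called against all controls, beside 6.04% of all genes tested. Some listed genes differed between the control sets, as given below for Nr1h2, Smpdl3a, Cd36, Msr1, Stab1, Gpihbp1, Arl8b and Hmgcs1. Of the LXRs and their partners, 0 of 5 tested genes were called by edgeR (0 at an unadjusted p under 0.05), with a median log2 fold change of -0.30. Nr1h3, which encodes LXR-alpha and is named here for that role and not by its p, had 633 ± 66.2 CPM in Commd10-deficient cells (SD, n = 3) and 813 ± 192 CPM in controls (SD, n = 4), a log2 fold change of -0.35 (SE 0.28, adjusted p = 0.463). Nr1h2, the LXR-beta gene, was at 0.62 (adjusted p = 0.308), the SUMO gene Sumo3 at 0.59 (adjusted p = 0.389) and the RXR gene Rxrb at -0.61 (adjusted p = 0.419). In the 3-level edgeR model Nr1h2 was 1.22 against control set 1 (adjusted p = 0.00391) and 0.14 against control set 2 (adjusted p = 0.749).

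Among 13 other LXR targets tested, 1 rose and 0 fell, and the median was 0.11. The gene that rose was Elovl5, which encodes an elongase of polyunsaturated fatty acids. It met the expression filter only through the Commd10-deficient libraries, where it was high, so its place among the tested genes depended on that group. It had 9, 8 and 10 counts in Commd10-deficient libraries, 3 and 2 in control set 2, and 90 and 46 in control set 1. The means were 77.6 ± 3.08 CPM in Commd10-deficient cells (SD, n = 3) and 13.8 ± 4.72 CPM in controls (SD, n = 4), with a log2 fold change of 2.38 (SE 0.56, adjusted p = 0.026). The SD of 3.08 is below what counting error gives at such counts. Leaving out any 1 Commd10-deficient library ended the call while the value stayed at 2.35, 2.38 and 2.33 (adjusted p = 0.149, 0.133 and 0.075 without replicates 1, 2 and 3), and without replicate 1 or 2 edgeR called 0 genes in all. A GC and length offset gave 1.98 (adjusted p = 0.064). Smpdl3a, a phosphodiesterase gene, was at 0.81 (adjusted p = 0.141) and the desaturase gene Fads1 at 0.83 (adjusted p = 0.233). Against control set 2 Smpdl3a was 1.34 (3-level edgeR, adjusted p = 0.00436) and Fads1 1.49 (adjusted p = 0.034). Against control set 1 they were 0.45 (adjusted p = 0.240) and 0.52 (adjusted p = 0.346).

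Receptors and lipase partners gave no call against all controls. Of 9 lipoprotein and scavenger receptor genes tested, 0 were called by edgeR and 2 had an unadjusted p under 0.05, with a median of 0.36. Cd36, the fatty acid and oxidised lipoprotein receptor gene, was at 2.55 (adjusted p = 0.066), the scavenger receptor gene Msr1 at 0.93 (adjusted p = 0.190) and Stab1 at -0.68 (adjusted p = 0.400). Cd36 had 17, 10 and 9 counts in Commd10-deficient libraries, 6 and 13 in control set 2 and 66 and 8 in control set 1, so it too was low in control replicate 2 (6.30-fold below replicate 1). In the 3-level edgeR model Cd36 was 3.57 against control set 1 (adjusted p = 0.00146) and 1.33 against control set 2 (adjusted p = 0.199). Msr1 was 1.57 against control set 1 there (adjusted p = 0.00339) and 0.35 against control set 2 (adjusted p = 0.508). Stab1 was -0.13 against control set 1 (adjusted p = 0.847) and -1.19 against control set 2 (adjusted p = 0.052). Of 9 lipase partner and triglyceride genes tested, 0 were called and 0 had an unadjusted p under 0.05, with a median of -0.15. Apoc3, an inhibitor of lipases, was at -0.97, Gpihbp1, which anchors LPL on capillary endothelium, at -0.86 (adjusted p = 0.326), and the lipid droplet coat gene Plin2 at 0.42 (adjusted p = 0.460). Gpihbp1 was -1.46 against control set 2 (3-level edgeR, adjusted p = 0.023) and -0.16 against control set 1 (adjusted p = 0.816).

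Intracellular cholesterol handling held 1 rise and 1 fall among 13 tested genes, with a median of 0.39. Vps35, the retromer core gene, rose with a log2 fold change of 1.97 (SE 0.34, adjusted p = 0.013), and Osbpl11, an oxysterol-binding protein family gene, fell. Osbpl11 met the expression filter only through the controls, where it was high. Osbpl11 had 0, 0 and 1 counts in Commd10-deficient libraries, 22 and 15 in control set 2 and 195 and 177 in control set 1, a pooled ratio to control set 2 of 0.0357 (exact 95% interval 0.00088 to 0.212). The Vps35 call was lost without Commd10-deficient replicate 1 (1.95, adjusted p = 0.113) or 2 (2.00, adjusted p = 0.123), where edgeR called 0 genes in all and the value hardly moved. It was also lost with the GC and length offset, where the value was 1.01 (adjusted p = 0.107). Osbpl11 was at -4.35 (SE 0.96, adjusted p = 0.021), a fitted value that depends on the prior count. Its call was lost without Commd10-deficient replicate 1 (-3.82, adjusted p = 0.142) or 2 (-3.87, adjusted p = 0.133) and in limma-voom (-3.03, adjusted p = 0.060). Without replicate 3, the only one with a count, the fitted value moved to -9.48 (adjusted p = 0.051). Arl8b, a lysosome positioning GTPase gene, was at 1.70 (adjusted p = 0.066). Against control set 1 Arl8b was 2.34 (3-level edgeR, adjusted p = 0.00179), and against control set 2 it was 0.90 (adjusted p = 0.216). Of 3 tested genes of SREBP2-driven cholesterol synthesis, 0 were called and 0 had an unadjusted p under 0.05, and Hmgcs1, Scap and Ebp lay between 0.13 and 0.24. For Hmgcs1 this averaged opposite signs in the 3-level edgeR model. It was 1.30 against control set 1 (adjusted p = 0.058) and -0.68 against control set 2 (adjusted p = 0.335). Control set 2 exceeded control set 1 by 1.98 for Hmgcs1 (adjusted p = 0.00454).

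**Figure D4:**
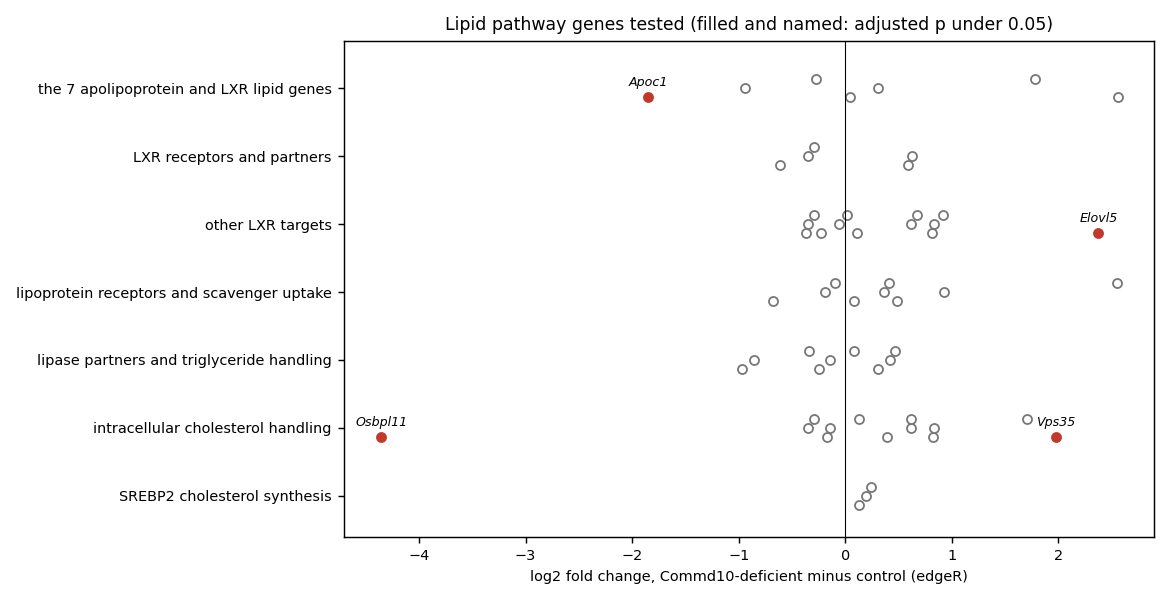
Log2 fold change of Commd10-deficient minus control for each tested gene of the 7 described and of 6 lipid pathway lists, 1 point per gene, filled and named where the edgeR adjusted p was under 0.05. Apoc1 (-1.85), Osbpl11 (-4.35), Elovl5 (2.38) and Vps35 (1.97) are filled, and every other point is open.

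Markers of other cells in which these genes are known to be active were also compared. The 11 detected markers of monocyte-derived and lipid-associated macrophages, of 13 listed, summed to 4830 to 5514 CPM in Commd10-deficient libraries, 3640 to 4872 CPM in control set 2 and 5088 to 5421 CPM in control set 1. Spp1 and Gpnmb, defining members of that list, are not among the genes analysed here. Of 5 members tested 1 rose, Ms4a7, a marker of monocyte-derived macrophages (1.66, edgeR adjusted p = 0.018), beside 3.46% of all genes tested. The other 4 were Lgals3 at -0.45 (adjusted p = 0.278), Capg at -0.16 (adjusted p = 0.810), Trem2 at 0.27 (adjusted p = 0.721) and Ctsd at 0.27 (adjusted p = 0.578). The 16 detected sinusoidal endothelial markers summed to 875 to 1035 CPM in Commd10-deficient libraries, 1237 to 1239 CPM in control set 2 and 980 to 1106 CPM in control set 1. The 8 detected stellate cell and fibroblast markers summed to 240.1 to 299 CPM in Commd10-deficient libraries, 420.0 to 454 CPM in control set 2 and 204 CPM in both libraries of control set 1. The 11 monocyte markers summed to 1318 to 1698 CPM in Commd10-deficient libraries, 854 to 965 CPM in control set 2 and 1276 to 2225 CPM in control set 1. Markers of neutrophils, dendritic cells, T and NK cells, B and plasma cells, and platelets and red cells each summed to at most 323 CPM in a Commd10-deficient library and at most 434 CPM in a control, and cholangiocyte markers had 0 detected genes. Of the genes of these lists other than Ms4a7, edgeR called 0, with 1 endothelial, 1 stellate and 1 monocyte marker at an unadjusted p under 0.05. The part of such cells in the values of Lpl and Abca1 was not tested.

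For each of the 6 filtered genes, the genes with the most similar profile were taken as those with the smallest root mean square difference of log2(CPM + 1), centred over the 7 libraries, among tested genes whose mean reached 50 CPM. All profiles come from the same libraries and depths. Nearest to Apoc1 were Gemin7 (0.17 log2 units), AI413582 (0.18) and the ribosomal protein gene Rps21 (0.22). Their edgeR log2 fold changes were -1.70 (adjusted p = 0.054), -1.69 (adjusted p = 0.025) and -1.48 (adjusted p = 0.021). Values near that of Apoc1 follow from choosing genes by profile in these libraries. Near Apoe lay Ppp4r1 (0.067) and the transferrin gene Trf (0.089). Nearest to Pltp were Ifitm3 (0.11), Pmm2 (0.21) and Ost4 (0.22). Abca1 lay nearest to Maf (0.26), a macrophage transcription factor gene, and then to Uqcrb (0.36) and Cd164 (0.40). Lpl lay nearest to Kctd12 (0.28), Tmem30a (0.30) and Capza2 (0.34), and Abcg1 to Pts (0.33), Ccpg1 (0.42) and Smarcc2 (0.45).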

How the data were processed

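The authors deposited 1 table of UMI-corrected raw counts per gene and library, per the file headers and the table's name. It also holds a normalized signal per library, which the authors deposited under a heading for normalized counts. From the values this is the raw count over 1 factor per library, and it was not used further. Build mm10 and the tools cutadapt, HTSeq and DESeq2 are named, without versions, per the submitters' processing notes. The sources used here name no aligner or strand setting. Filtering of reads by UMI and 3′ tagging mean that levels count molecules near transcript ends.

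Counts were tested with the edgeR 4.0.16 quasi-likelihood F test (R 4.3.3, TMM factors, default expression filter on genotype, robust shrinkage), with Benjamini-Hochberg adjustment over all genes tested and calls at an adjusted p under 0.05. Log2 fold changes put Commd10-deficient over control, and their SE follows from the F statistic. A model with 3 levels gave the contrasts with each control set. CPM use TMM-scaled library sizes. Intervals of counts are exact Poisson or Wilson at 95% and cover counting error only. DESeq2 1.42.0 and limma-voom (limma 3.58.1), other scalings, no filter, each control set alone, each library left out and a GC and length offset (GENCODE M21 transcripts, 97.0% of tested genes matched) were alternatives. Replicate pairs differed beyond sampling noise (chi-square per degree of freedom of 1.54 to 15.0), so none was merged. Replicates follow record order and pair nothing, and p-values measure the spread between libraries, which may be technical. The 7138 genes below the filter were not tested, and 0 columns were unmatched.

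The genes and lists were chosen with earlier results of these data known. Named genes are the 7, and from each of 6 pathway lists those called plus up to 3 with the smallest p. The 12 marker lists (Kupffer cell, hepatocyte, sinusoidal endothelial, stellate, monocyte, monocyte-derived macrophage, neutrophil, dendritic, T and NK, B and plasma, platelet and red cell, cholangiocyte) are summed over their detected genes. The 3 genes of most similar profile were taken for each filtered gene, and 1 of them is not reported here.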

Additional observations from a re-analysis of the deposited data

How the results depend on the processing

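Apoc1 kept its direction in all 15 alternatives, from -2.06 to -1.33 on the log2 scale where no library was left out and from -2.23 to -1.72 where 1 was, with adjusted p from 1.9e-10 to 0.127. Its share of the Apoe plus Apoc1 counts differed by -11.8 percentage points, and by -14.4 to -9.19 under alternatives chosen after seeing the data. Genes called (206) numbered 514 with no filter, 369 in DESeq2, 576 with control set 1 alone, 697 with control set 2 alone, 132 with the GC and length offset, and 0 to 276 with 1 library left out. Of the 7 genes (1 called), 3 were called with no filter, 2 in limma-voom, 3 with control set 1 alone, 3 with control set 2 alone and 0 to 3 with 1 library left out. In the 3-level model 1 to 3 were called against control set 2 with 1 library left out, and between the control sets 1 with library totals alone and 2 to 4 with 1 library left out; a lone library of a set was there assumed to vary like the others. The 6 pathway lists (3 called) gave 6 with no filter, 7 with control set 1 alone, 10 with control set 2 alone, 1 with the GC and length offset and 0 to 4 with 1 library left out, alternatives also chosen after seeing the data. Signs turned for Apoe with no filter (-0.16), in DESeq2 (-0.031), with control set 2 alone (-0.23) and with 1 library left out (-0.10 to 0.20), for Pltp (-0.28) and Mylip (0.034) with control set 2 alone, and for Abcg1 with 1 library left out (-1.03 to 0.24); the cause was not tested. Abcg1 and Mylip had at most 12 and 4 counts in a Commd10-deficient library, which limits their precision. No paired analysis was possible because the replicate numbers follow record order and mark no shared animal, litter or day.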
